A study of Mus musculus with 8 samples.

Results

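Integrator is a multi-subunit complex that travels with RNA polymerase II. The results here cover 10 of its subunit genes in mouse round spermatids: Ints1, Ints2, Ints3, Ints4, Ints6, Ints7, Ints8, Ints9, Ints10 and Ints11, the last known earlier as Cpsf3l. Members were taken as all array probe sets that the platform annotation gives to exactly 1 gene, that gene being 1 of these subunits, which gave 23 of 45037 probe sets and 10 of 18193 genes. The gene family was selected on earlier results of these same arrays, their mutant-against-control log2 differences, that of Ints11 among them, and no threshold on those values was applied. For the members that contrast is therefore a description and not a test, and the threshold below only states which members the fit across all genes called.

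Round spermatids, the haploid cells that follow meiosis, were purified on an albumin gradient from adult 129 Sv/Ev mice of 2 to 4 months. The 4 mutant arrays came from BrdtΔBD1 mice. There Brdt, an acetyl-lysine reader made in the testis, is without the first of its bromodomains. The 4 control arrays were of control mice of that strain, whose genotype the labels do not spell out, and nor do they give the zygosity of the mutants. Each array held RNA pooled from 7 animals, so the spread between arrays is one between pools.

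Integrator cuts nascent small nuclear RNAs of the spliceosome near their 3' ends, and it also cuts short transcripts of paused polymerases and thereby ends their transcription. Its endonuclease is INTS11, a metallo-beta-lactamase relative of the cleavage factor CPSF3, which pairs with INTS9 and is held by INTS4 in the cleavage module. INTS1, INTS2 and INTS7 belong to the backbone, INTS6 and INTS8 to the module that recruits protein phosphatase 2A, INTS10 to an auxiliary module with INTS13 and INTS14, and INTS3 is shared with a single-stranded DNA-binding complex of the DNA damage response. The small nuclear RNAs serve the splicing of nearly all messenger RNAs, those of spermatids included.

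RefSeq promoter windows (build GRCm38.p6) matched 7 of the 10 genes, and Ints8, Ints9 and Ints10 were not among them. The 250 bases before the start are shown for Ints11 and Ints4, the 2 members whose mutant arrays all read below every control array, and for Ints7, whose mean was higher in mutant arrays. Capitals mark matches, searched on both strands, to the CCAAT box (these letters), the GC box (GGGCGG), the cAMP response element (TGACGTCA), the ETS core (CCGGAA), the YY1 motif (GCCATNTT) and the TATA box (TATAAA).
Ints11 promoter, chr4:155869317-155869566 (+ strand): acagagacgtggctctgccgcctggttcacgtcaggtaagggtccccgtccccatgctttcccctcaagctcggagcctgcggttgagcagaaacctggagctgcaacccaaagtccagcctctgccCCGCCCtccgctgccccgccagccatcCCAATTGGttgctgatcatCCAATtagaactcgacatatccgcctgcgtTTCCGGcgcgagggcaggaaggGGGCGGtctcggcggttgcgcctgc
Ints4 promoter, chr7:97480706-97480955 (+ strand): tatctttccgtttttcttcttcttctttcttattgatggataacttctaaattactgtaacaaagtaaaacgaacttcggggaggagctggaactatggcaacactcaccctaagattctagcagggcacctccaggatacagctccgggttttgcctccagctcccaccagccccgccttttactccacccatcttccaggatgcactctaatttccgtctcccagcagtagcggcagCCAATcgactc
Ints7 promoter, chr1:191575386-191575635 (+ strand): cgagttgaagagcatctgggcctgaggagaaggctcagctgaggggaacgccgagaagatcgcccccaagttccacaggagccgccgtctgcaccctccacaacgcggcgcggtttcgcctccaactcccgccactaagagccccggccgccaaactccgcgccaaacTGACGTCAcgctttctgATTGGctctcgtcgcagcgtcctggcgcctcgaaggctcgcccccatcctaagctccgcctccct
The letters CCAAT occurred in 6 of the 7 member windows, against 33.8% of all 32851 windows of that length. The Ints11 window held 3 of them, of which 2 overlap on opposite strands, along with 2 GGGCGG matches and 1 CCGGAA match. The Ints4 window held 1 CCAAT and no other match. TGACGTCA, present in 1.55% of all windows, was found in that of Ints7 alone among the members. GGGCGG was in 4 of the 7 windows and in 32.7% of all, CCGGAA in 3 and in 3952 of the 32851. The YY1 motif and the TATA box were in 0 of the 7, against 3.91% and 12.4% of all. These are matches of letters, not binding sites.

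Ints11 was the subunit with the largest difference. On its only probe set, 1423964_at, it read 7.65, 7.78, 7.77 and 7.44 (log2 intensity) on mutant arrays 1 to 4, against 9.39, 9.12, 8.99 and 9.11 on control arrays 1 to 4. The highest mutant array lay more than 1 log2 unit below the lowest control array. The means were 7.66 ± 0.16 in mutant and 9.15 ± 0.17 in control arrays (SD, n = 4 each), a log2 difference of -1.49 (SE 0.13), or a 2.81-fold lower level. The labels state no pairing of the arrays, and pairs of equal replicate number were taken from the data. In these 4 pairs the differences were -1.74, -1.34, -1.22 and -1.67. In these bulk samples, fewer cells that express a gene and less RNA per cell cannot be told apart.

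**Figure D1:**
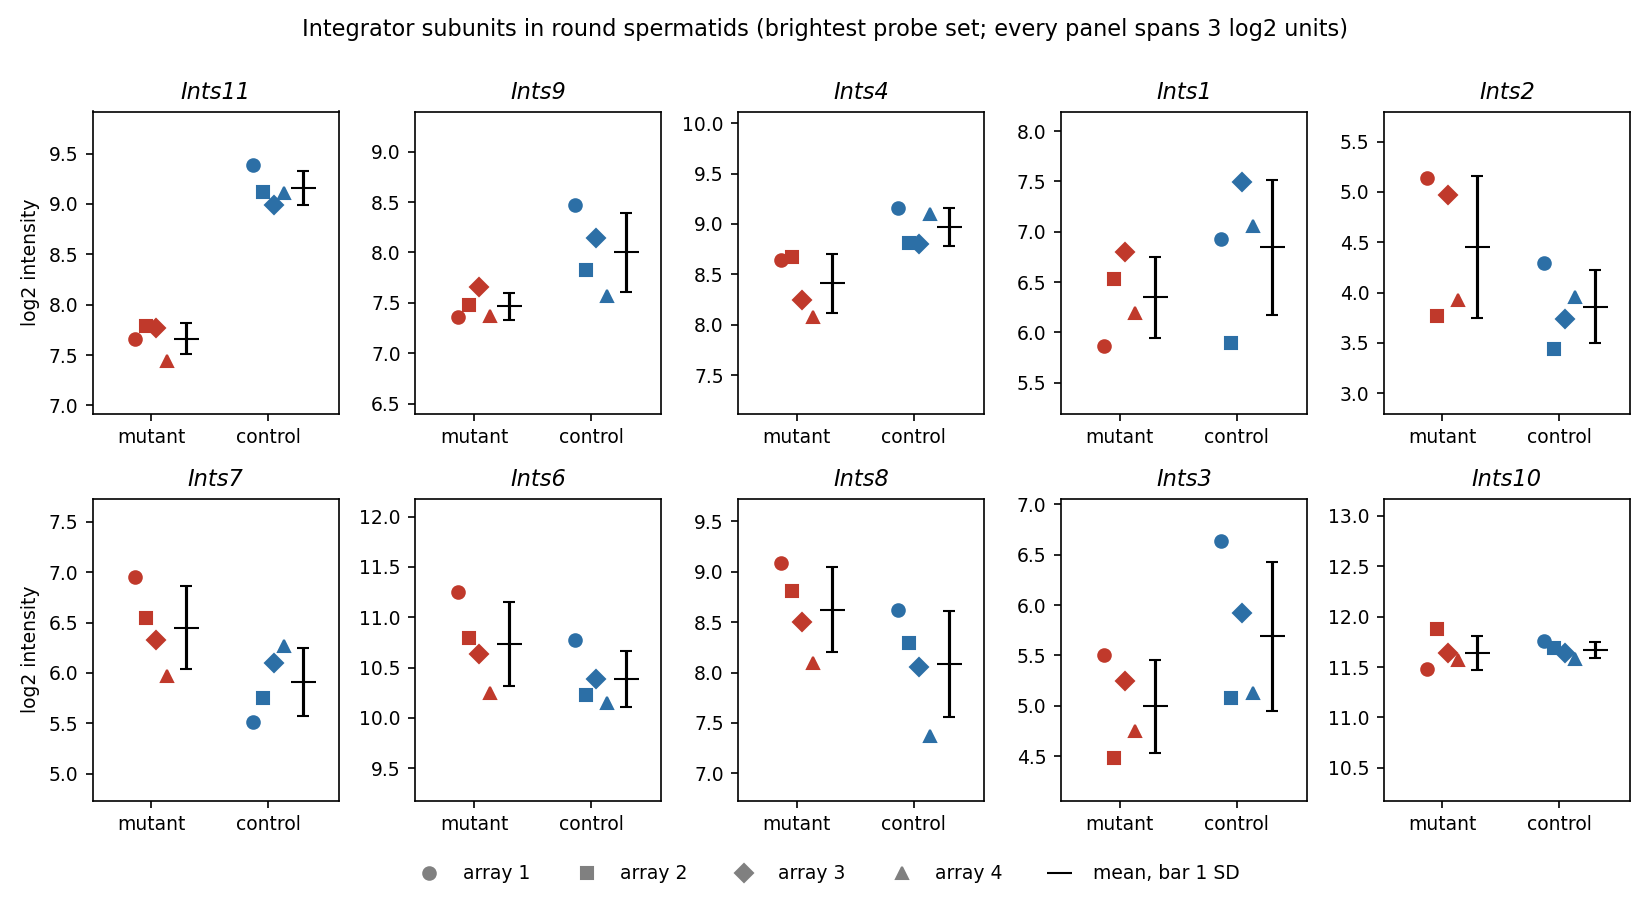
Log2 intensity (y axis) of the brightest probe set of each of the 10 Integrator subunits on the 4 mutant (red) and 4 control (blue) arrays, with the mean and 1 SD in black; marker shapes give the array number. The groups are apart for Ints11 (7.44 to 7.78 in mutant, 8.99 to 9.39 in control) and for Ints4, and overlap for the other 8.

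The other cleavage module genes also had lower means in mutant arrays, by less. Ints4, whose product holds the nuclease pair, read 8.64, 8.68, 8.24 and 8.08 on mutant arrays, against 9.16, 8.81, 8.81 and 9.10 on control arrays. These groups did not overlap either, although mutant array 2 and control array 3 were close. The log2 difference was -0.56 (SE 0.17). Ints9, the inactive partner of the nuclease, read 7.36, 7.48, 7.65 and 7.37 on mutant arrays and 8.47, 7.83, 8.14 and 7.57 on control arrays. Mutant array 3 lay above control array 4, so the groups overlapped, and the log2 difference was -0.54 (SE 0.19). Neither Ints4 nor Ints9 passed the threshold of 0.05 (adjusted p, limma over all genes). The difference of Ints9 rested largely on control arrays 1 and 3 and was -0.23 without them, while Ints4 stood at -0.55 and Ints11 at -1.45.

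In all, 1 of the 10 members was called lower, Ints11, and 0 were called higher, where 1.85% of all 18193 genes were called lower, 1.86% higher and 3.71% either way. Ints4 and Ints9 were also lower, and Ints7 higher, at an unadjusted p under 0.05. Ints7 ranked 3636 of 18193 genes by p, so at least 3636 genes passed that cut, in either direction. The groups did not overlap for 2 members, both lower, against 6.49% of all genes lower, 6.15% higher and 12.6% either way. The median log2 difference over the members was -0.26, beside -0.02 over all genes tested, with 6 members lower and 4 higher. With the replicate number as a block, 2 members were called lower (Ints11 and Ints3) and 1 higher (Ints8), where the block called 4.94% and 6.60% of all genes. Since this contrast chose the family, nothing is read from these counts.

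**Figure D2:**
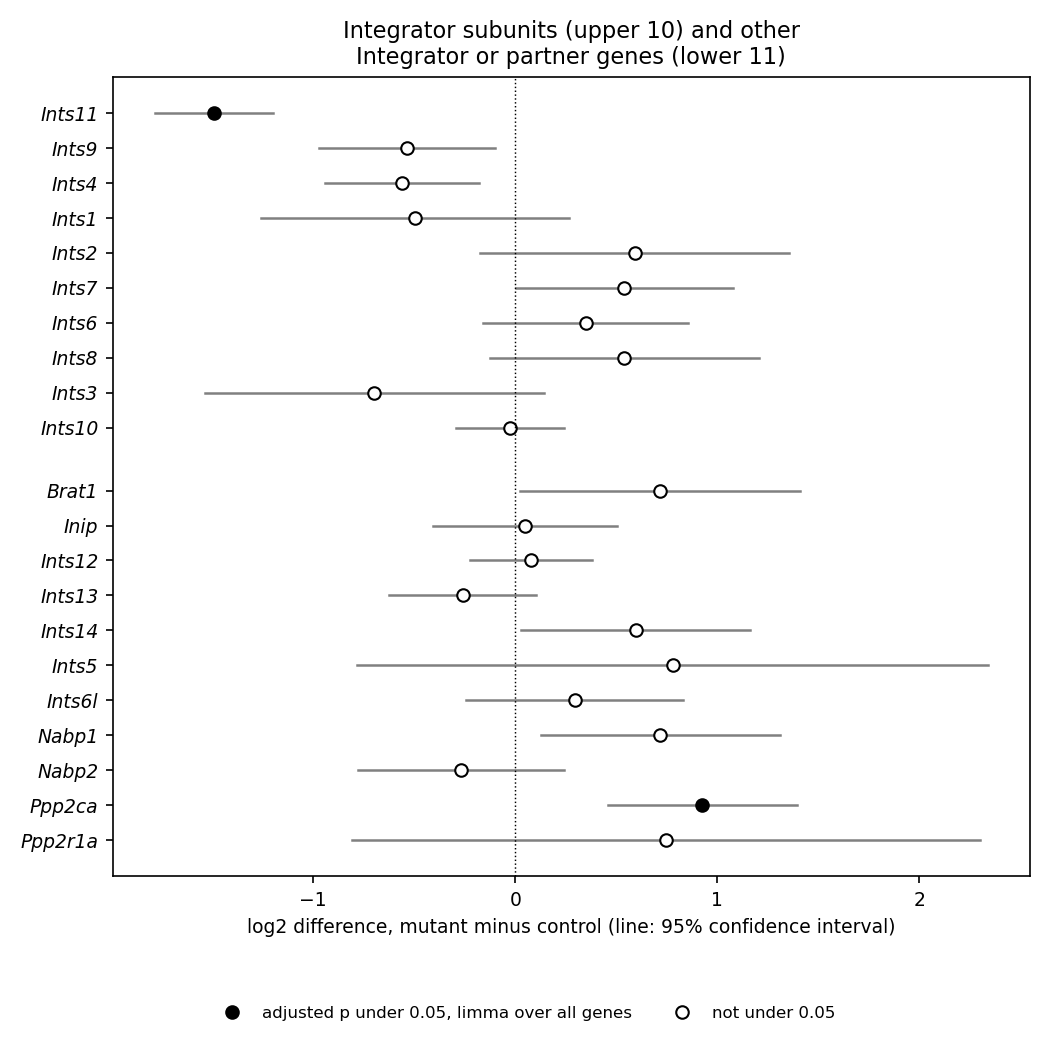
Log2 difference between mutant and control arrays (x axis) with its 95% confidence interval for the 10 subunits and for 11 other Integrator or partner genes (y axis), filled where the adjusted p over all genes is under 0.05. Ints11 at -1.49 and Ppp2ca at 0.92 are filled, and the intervals of most others include 0.

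Of the backbone genes, Ints1 encodes the large scaffold subunit. It read 5.87, 6.53, 6.80 and 6.19 on mutant arrays, against 6.93, 5.90, 7.49 and 7.06 on control arrays. Control array 2 lay below 3 of the mutant arrays, and the log2 difference of -0.50 (SE 0.34) was -0.13 without control arrays 1 and 3. It was -0.28 without control array 3 alone and -0.81 without control array 2. Ints7 went the other way, at 6.95, 6.54, 6.32 and 5.97 on mutant arrays, against 5.51, 5.76, 6.10 and 6.27 on control arrays. Its pairs differed by 1.44, 0.79, 0.22 and -0.30, so 1 of 4 pairs ran against the mean difference of 0.54 (SE 0.24). Another Ints7 probe set, 1428531_at, had a difference of 0.97 (SE 0.34), with 3 of the 4 mutant arrays above every control array. Ints2 was dim, at 5.14, 3.77, 4.97 and 3.92 on mutant arrays and 4.30, 3.44, 3.74 and 3.96 on control arrays. The spread among its mutant arrays (SD 0.71) exceeded the difference of 0.59 (SE 0.34), which was 0.36 without mutant array 1. Its dimmer probe set, 1436247_at, read 3.95, 3.86, 3.83 and 3.41 on mutant arrays and 3.17, 2.85, 3.07 and 3.27 on control arrays, without overlap (difference 0.67, SE 0.15), and was not called.

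On their brightest probe sets, Ints8 and Ints6 of the phosphatase module had higher means in mutant arrays. Ints8 read 9.08, 8.81, 8.51 and 8.10 on mutant arrays, against 8.62, 8.29, 8.05 and 7.37 on control arrays. The groups overlapped, but within equal replicate numbers the mutant array was higher by 0.46, 0.52, 0.45 and 0.73, and Ints8 was called higher with the replicate block and not without it (log2 difference 0.54, SE 0.29). Without control array 4 the difference was 0.30. Of the other Ints8 probe sets with a mean above 4, 1431096_at differed by 0.66 (SE 0.68). Its mutant array was higher in all 4 pairs. The other, 1460609_at, differed by -0.06 (SE 0.13), with the mutant array lower in 3 of 4 pairs. Ints6, a von Willebrand A domain subunit, read 11.25, 10.79, 10.64 and 10.25 on mutant arrays, against 10.78, 10.22, 10.39 and 10.15 on control arrays. In each of the 4 pairs the mutant array read higher, by 0.47, 0.57, 0.25 and 0.10, and Ints6 was called neither with the block nor without (difference 0.35, SE 0.22, and 0.17 without mutant array 1).

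Ints3, the subunit shared with the DNA-binding complex, read 5.50, 4.48, 5.25 and 4.75 on mutant arrays, against 6.64, 5.08, 5.93 and 5.13 on control arrays. Control arrays 1 and 3 were the high ones. The mutant array was lower in all 4 pairs, by 1.13, 0.60, 0.68 and 0.38, and Ints3 was called lower with the block and not without it (log2 difference -0.70, SE 0.37). Its other probe set, 1423922_s_at, differed by -0.65 (SE 0.39). Ints3 stood at -0.38 without control array 1 and at -0.11 once control arrays 1 and 3 were left out. Ints10 was bright and even, at 11.48, 11.87, 11.64 and 11.57 on mutant arrays and 11.76, 11.69, 11.64 and 11.58 on control arrays. Its log2 difference of -0.03 had a 95% confidence interval from -0.29 to 0.24, which leaves room for a small change either way.

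Of the 23 member probe sets, 14 had a mean of at least 4 over the 8 arrays and 9 did not. Ints4, Ints9 and Ints11 had 1 probe set each, so no second one could be set against their differences. The 9 dim ones lay between 2.15 and 3.95 on every array, where differences are less reliable. They belong to Ints1, Ints2, Ints6, Ints7, Ints8 and Ints10. At probe set level 1 of 23 was called lower, that of Ints11, and 0 higher, beside 0.702% and 0.717% of all 45037 probe sets. With the block 2 were called lower (Ints11 and the brighter Ints3 probe set) and 2 higher (1435250_at of Ints8 and the dim 1443128_at of Ints6), where the block called 2.50% and 3.92% of all.

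**Figure D3:**
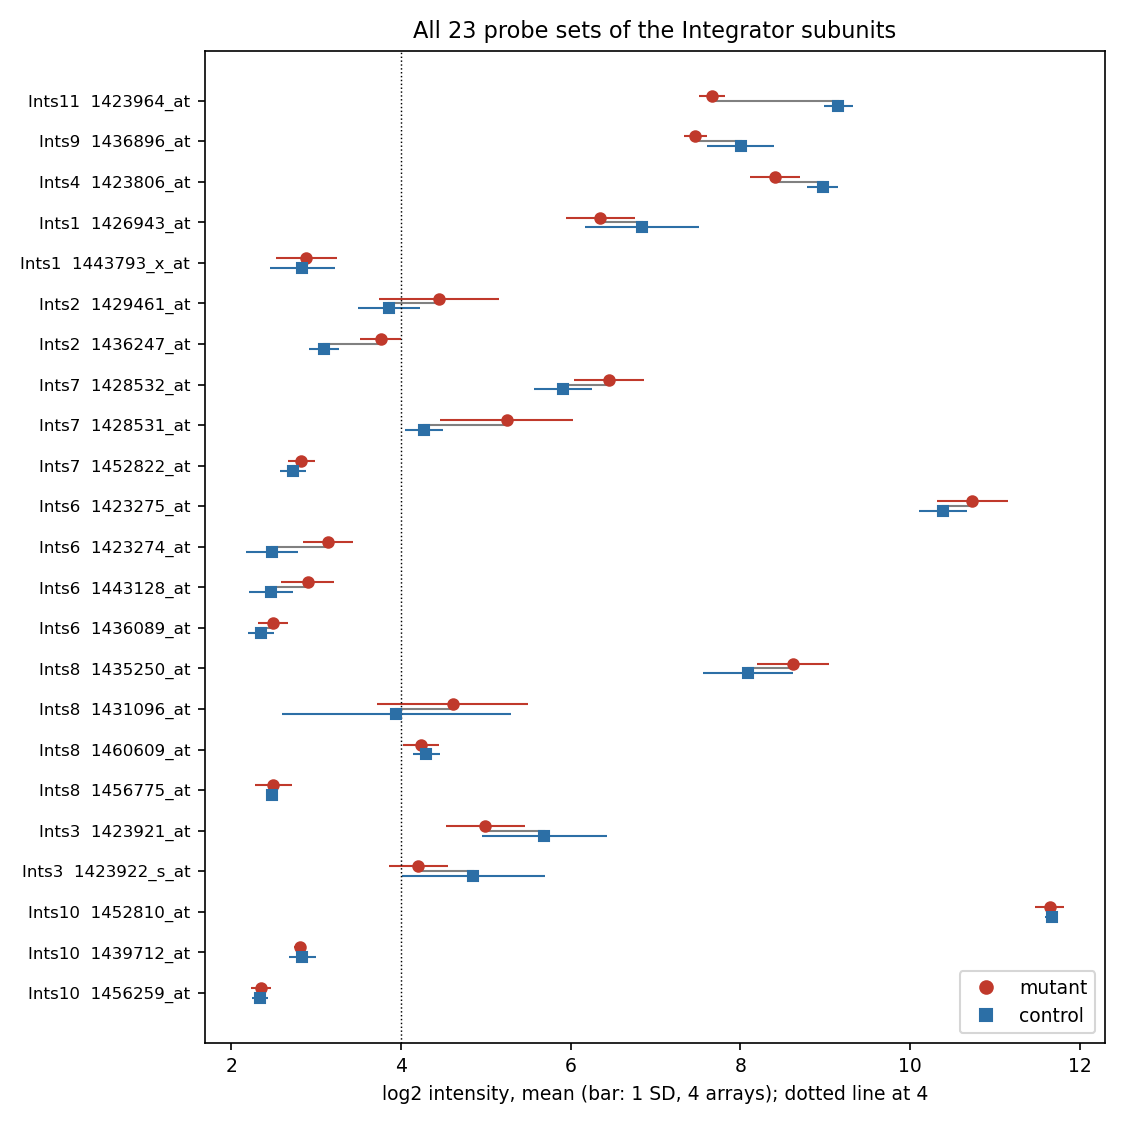
Mean log2 intensity (x axis) with 1 SD over 4 arrays for mutant (red circles) and control (blue squares) of all 23 probe sets of the 10 subunits (y axis); the dotted line at 4 parts the 14 brighter from the 9 dimmer ones by their overall mean. The distance between the groups is widest for Ints11, at 7.66 against 9.15.

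Some member probe sets followed the replicate number in both genotypes. In number order, the Ints8 probe set 1431096_at had 4.21, 5.59, 3.58 and 5.06 in the mutants, against 3.07, 5.25, 2.52 and 4.95 in the controls. Arrays 2 and 4 were the high ones in both genotypes. The brightest Ints8 probe set, 1435250_at, instead fell from number 1 to number 4 in both genotypes. The 2 Ints8 probe sets thus differ in pattern although they are annotated to 1 gene. Ints3 had its high arrays at numbers 1 and 3 in both genotypes. So did Ints5, a phosphatase module subunit outside the 10, at 8.25, 5.85, 7.59 and 5.75 on mutant arrays and 7.19, 4.96, 6.83 and 5.36 on control arrays. A test of the replicate number across all probe sets, chosen after these values were seen, gave adjusted p = 0.0605 for 1431096_at, 0.0696 for 1435250_at and 0.081 for the brighter Ints3 probe set (limma F test), and 0 of the 23 passed. That term passed for 70 of 45037 probe sets, or 0.155%.

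**Figure D4:**
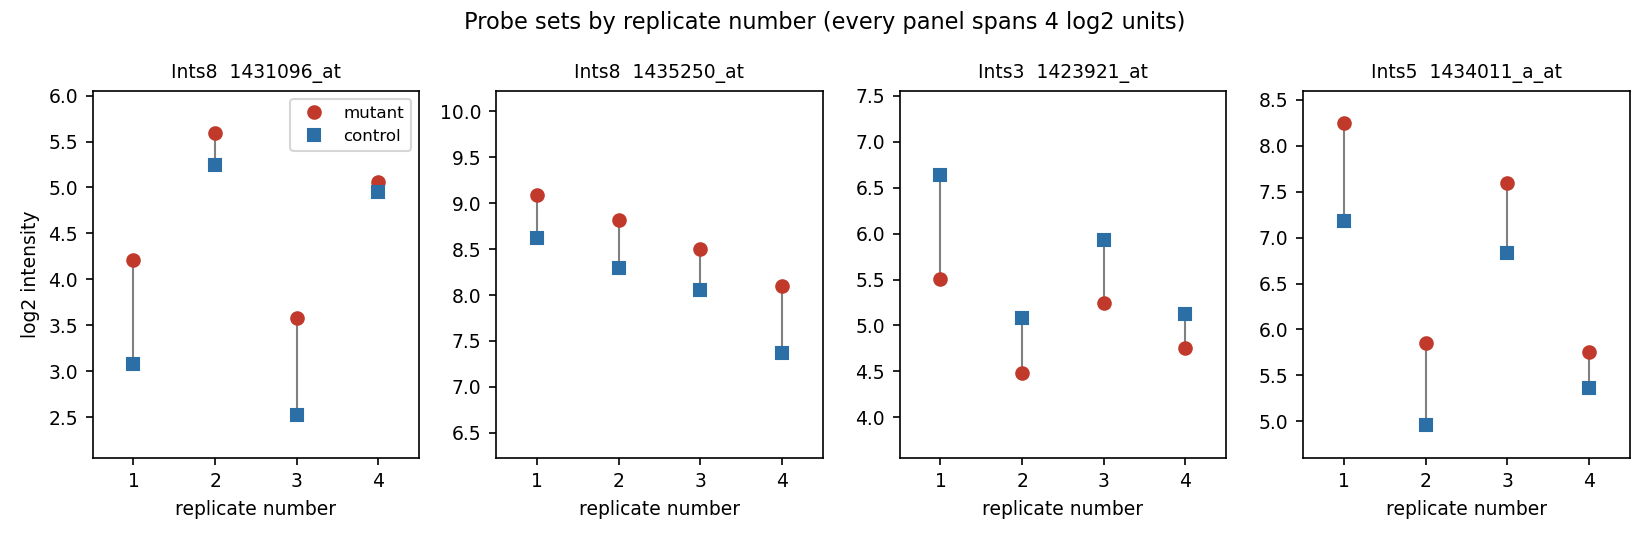
Log2 intensity (y axis) by replicate number (x axis) in mutant (red circles) and control (blue squares) arrays for the 2 brightest Ints8 probe sets, the brighter Ints3 probe set and Ints5; grey lines join arrays of equal number. Numbers 2 and 4 are high for 1431096_at (4.95 to 5.59), and numbers 1 and 3 are high for Ints3 and Ints5.

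The arrays were alike in some general measures and differed in others. Array medians, which the normalization of the deposited values can make equal, lay between 3.10 and 3.14 in mutant and between 3.10 and 3.14 in control arrays. Round spermatid markers were bright in both groups, with a list mean of 13.68 to 13.97 in mutant and 13.66 to 13.90 in control arrays, and 0 of 10 were called (1 at an unadjusted p under 0.05). The difference between 3' and 5' probe sets of Gapdh, a measure of RNA integrity, was 0.33 to 0.94 in mutant arrays, against 1.68 and 2.05 on control arrays 1 and 3 and 0.48 and 0.46 on control arrays 2 and 4. Among 22 measured Sertoli cell markers, 6 rose in mutants and 0 fell (15 higher at an unadjusted p under 0.05), and the log2 of their summed intensity was 12.65 to 14.57 in mutant and 10.95 to 12.39 in control arrays. With the replicate number as a block, 12 of these markers rose. Of the genes on that list, Cldn11, a tight junction protein of the blood-testis barrier, rose to 5.89 in mutant arrays, against 4.17 in control arrays. The others called had larger log2 differences, 4.01 for Fabp5, 3.05 for Aard, 3.01 for Defb19, 2.95 for Vim and 2.88 for Cst12. The means of Wt1 were 5.10 in mutant and 3.95 in control arrays, those of Clu 12.16 in mutant and 10.49 in control arrays, and those of Amhr2 10.06 in mutant and 8.41 in control arrays, and these 3 were not called without the block. Amh (1.95 in mutant, 1.97 in control), which is low in adult testis, and Sox9 (3.80 in both) were dim. Of 7 Leydig markers 2 rose, Gsta2 and Aldh1a1, while Star, Cyp11a1, Cyp17a1, Hsd3b1 and Hsd17b3 were not called. Of 9 spermatogonia markers 1 rose (5 higher at an unadjusted p under 0.05). Of 10 spermatocyte markers 0 rose (6 higher at that level, which at least 3636 of all 18193 genes passed either way). The list means of spermatogonia markers were 5.58 to 6.20 in mutant and 4.67 to 5.21 in control arrays. Those of Leydig markers were 3.90 to 4.19 in mutant and 2.75 to 3.34 in control arrays. For spermatocyte markers they were 8.15 to 9.65 in mutant and 7.97 to 8.45 in control arrays. The fit with the block called 4 of the spermatogonia markers and 4 of the spermatocyte markers higher. With the mean of the Sertoli markers as a covariate, Ints11 had a log2 difference of -1.28 (SE 0.24), and 0 of the 10 members were called. Ints4 stood at -0.22 (SE 0.30) in that fit and Ints8 at 1.12 (SE 0.53). Ints2 turned to -0.23 (SE 0.57) and Ints10 to 0.28 (SE 0.20). No mutant array had a Sertoli mean as low as any control array, so those values are extrapolated, and the part of these cells in the differences was not tested otherwise. Brdt itself read 11.09, 10.68, 10.29 and 10.62 on mutant arrays and 12.13, 12.24, 11.72 and 12.25 on control arrays. Whether its probe set covers the deletion is not known here, and the level does not check the labels.

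Other genes of the pathway were taken from lists chosen with earlier results known. Of 11 measured Integrator and partner genes outside the 10, 1 rose and 0 fell (4 and 0 without adjustment), and their median log2 difference was 0.60. Over all 18193 genes, at least 3636 had an unadjusted p under 0.05, in either direction. The riser was Ppp2ca, a catalytic subunit of protein phosphatase 2A, which also serves many complexes other than Integrator. It read 9.69, 8.97, 9.10 and 8.80 on mutant arrays, against 8.38, 7.88, 8.39 and 8.21 on control arrays, a 1.90-fold rise (adjusted p = 0.046, limma over all genes). It missed the threshold in 6 of the 8 fits without 1 array, those without mutant array 1 or 3 or any 1 of the control arrays, with adjusted p up to 0.12. The mean of all its probe sets gave 0.43 (adjusted p = 0.12). Ints5 and the scaffold subunit gene Ppp2r1a had differences of 0.78 (SE 0.69) and 0.75 (SE 0.69), and were called with the block (adjusted p = 0.021 for Ints5 and 0.022 for Ppp2r1a) but not without it. Nabp1, a partner of Ints3 in the DNA-binding complex, and Brat1, a binding partner of the nuclease pair, were not called, at 0.72 each (SE 0.26, adjusted p = 0.17 for Nabp1, and SE 0.31, adjusted p = 0.23 for Brat1). For the auxiliary module, Ints13 differed by -0.26 (SE 0.16) and Ints14 by 0.60 (SE 0.25), and neither was called.

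In small nuclear RNA synthesis and maturation, 0 of 22 genes rose and 1 fell, with a median log2 difference of 0.00. At an unadjusted p under 0.05, 4 were higher and 3 lower, and with the block 0 rose and 2 fell. Over all 18193 genes at least 3636 passed that unadjusted cut, and the block called 4.94% lower and 6.60% higher. Gemin5, which recognizes small nuclear RNAs for assembly with Sm proteins, read 10.01, 10.02, 10.11 and 10.09 on mutant arrays, against 10.64, 10.38, 10.55 and 10.65 on control arrays, a 1.41-fold lower level (adjusted p = 0.039). It passed in 1 of the 8 fits without 1 array, that without control array 2, with adjusted p up to 0.11 in the other 7. Of 11 genes of cleavage and polyadenylation, which hold the nearest relatives of the nuclease pair, 0 passed in limma, 2 were lower at an unadjusted p under 0.05, and Wdr33 had the smallest p (log2 difference -0.47, SE 0.16, adjusted p = 0.15). Cpsf3 itself differed by -0.34 (SE 0.17) and Cpsf2 by -0.42 (SE 0.33). Of 12 genes of promoter-proximal pausing and the polymerase tail, 0 passed in limma, and their median log2 difference was 0.29. Unadjusted p fell under 0.05 for 4 higher and 2 lower ones, and with the block 3 rose and 2 fell. Nelfe, a subunit of the negative elongation factor, had the smallest p at -0.46 (SE 0.12, adjusted p = 0.064, and 0.036 with the block).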

How the data were processed

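The authors deposited normalized log2 intensities, 1 per array and probe set. GCRMA and limma are named, without versions or roles, per the submitters' processing notes. Differences between dim probe sets can be distorted by such normalization, which was not tested. The 64 control probe sets were left out, which leaves 45037, of which 34945 carry 1 gene. Symbols were updated by Entrez identifier (34741 matched, assembly GRCm38.p6). Each gene was read from the brightest of its single-gene probe sets by the mean of the 8 arrays.

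Mutant and control arrays, grouped by title, went into a linear model per gene (limma 3.58.1, R 4.3.3) (group as the only term, both directions), with Benjamini-Hochberg adjustment over all genes or all probe sets and a threshold of 0.05. The fit was tested on simulated data. Depth does not apply to arrays, and their number limits the precision. Same-numbered arrays deviated together (correlations of 0.40 to 0.54 over all probe sets, each above 0.1), so the numbers were taken as pairs, from the data and not from the labels, and the replicate block is an alternative. The other alternatives left out single arrays or control arrays 1 and 3, rescaled the arrays (quantile, median), set a minimum mean of 4, changed the variance model or array weights, averaged all probe sets, or added the Sertoli marker mean as a covariate. All members are named. Of the other pathway lists, genes past the threshold are named, or else the one with the smallest p, and further genes were named after their values were seen. The members and lists were chosen with earlier results of these data known.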

Additional observations from a re-analysis of the deposited data

Results flagged for a closer look

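Among 76 groups of 4 arrays examined for an array far from the other 3, 1 was found, and chance alone gives about 5% of such groups. Ints12, the PHD finger subunit, read 8.61 on mutant array 3, against 8.68 as the nearest of the other mutant arrays, a gap of 0.931 of that group's range. The group was narrow (SD 0.03), and the mutant and control means were 8.66 and 8.59.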

How the results depend on the processing

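Ints11 was called lower in 16 of 17 alternatives, the exception being the Sertoli covariate (0 members lower), with log2 differences from -1.54 to -1.28. The members called lower numbered 2 with the replicate block, 2 with quantile normalization and 2 with array weights (Ints4 in both of the last), and 1 was called higher with the block. Leaving out 1 array at a time left 1 member lower and 0 higher in each of the 8 fits. Over all genes, 899 were lower and 1201 higher with the replicate block, 618 lower with quantile normalization, 675 lower and 980 higher with array weights, 508 higher with trend and robust moderation, 50 lower and 18 higher without control arrays 1 and 3, and 8 lower and 6 higher with the Sertoli covariate. Without 1 array they numbered 129 to 376 lower and 70 to 755 higher. The causes were not tested. The block changed the calls of Ints3, Ints8, Ints5, Ppp2r1a, Smn1 and Nelfe and of 4 further pausing genes, and it raised the markers called higher to 12 Sertoli, 4 spermatocyte and 4 spermatogonia genes. Differences of dim probe sets are limited by their signal over background.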

Other observations

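Ppp2r1a, the scaffold subunit of protein phosphatase 2A, had its high arrays at the same replicate numbers as Ints5. In number order it had 9.49, 6.61, 9.08 and 7.89 in the mutants, against 8.46, 6.21, 8.19 and 7.22 in the controls. The test of the replicate number over genes gave adjusted p = 0.0604 for Ppp2r1a and for Ints5 (limma F test). That term passed the threshold for 0 of 18193 genes. Smn1, the survival motor neuron gene whose product assembles small nuclear ribonucleoproteins together with Gemin5, read 5.58, 5.48, 5.20 and 5.86 on mutant arrays, against 7.03, 6.36, 5.68 and 7.32 on control arrays. It was lower in all 4 pairs (log2 difference -1.06, SE 0.33), with adjusted p of 0.12 without the replicate block and 0.022 with it (limma).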
